A study of Mus musculus with 4 samples.

Results

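The 32 enzyme genes described here encode the tricarboxylic acid cycle, the routes by which pyruvate, glutamate and aspartate enter and leave it, and the side branch that makes itaconate. They were named as members of the pathway, by a choice made with earlier results of these data known, and each was matched by its Ensembl identifier to 1 row of the authors' table, which holds 53139 rows, of which 12648 were tested. All 32 were tested, all reached 1 FPKM in at least 1 group and 29 reached 5 FPKM. FPKM, fragments per kilobase of transcript scaled to library size, is a level per length, so levels of different genes can be set side by side. Where 2 levels of a gene are given without their groups, the MEK1-low value comes first.

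The RNA came from wild-type mouse macrophages derived from MCA fibrosarcoma tumours of the line 9609 parent and treated in vitro with exosomes, small vesicles that cells release. In 1 group (2 samples) the exosomes were MEK1-low, marked GFP in the label, and in the other (2 samples) MEK1-hi. MEK1 is a kinase of the RAS-ERK cascade. The labels name no untreated cells, no dose and no time, so every difference is relative to MEK1-low (GFP) exosomes, and MEK1 content and the GFP mark cannot be told apart. The table gives 1 value per group, so no spread between samples can be printed, the depth of each sample is unknown, and the p-values and q-values are the authors' own.

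The tricarboxylic acid cycle oxidises acetyl groups in the mitochondrial matrix and passes their electrons to the respiratory chain. Anaplerotic enzymes refill it, chiefly from pyruvate and glutamate. In macrophages the cycle has a side branch: Acod1, also known as Irg1, takes cis-aconitate out of the cycle and decarboxylates it to itaconate, which inhibits succinate dehydrogenase. Acod1 is known as a gene that macrophages switch on when they sense bacterial products.

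Macrophage transcripts dominated both groups. The 8 macrophage markers (Lyz2, Csf1r, Adgre1, Cd68, Mertk, Fcgr1, Itgam and C1qa) summed to 17573 FPKM in the MEK1-low group and 18380 FPKM in the MEK1-hi group, and none passed the authors' test. Within that sum Lyz2 was at 12303 and 13148 FPKM, Csf1r at 855 and 672 FPKM and Adgre1 at 387 and 318 FPKM, and Fcgr1, at 107 and 153 FPKM, had an unadjusted p of 0.011 (q = 0.236) in the authors' deposited table. Of 7 neutrophil markers, 5 were at 0 in both groups, among them S100a9, Ly6g, Mpo and Elane, and the sum went from 73.3 to 53.4 FPKM, carried by S100a8 and Csf3r. S100a8, at 35.5 and 22.6 FPKM, had an unadjusted p of 0.00405 (q = 0.118) in the authors' deposited table. The 7 fibroblast or sarcoma markers summed to 6.56 and 5.25 FPKM. The T cell, B cell, endothelial, dendritic and mast cell lists summed to at most 1.62 FPKM in either group. None of these markers passed the test at q under 0.05, and their part in the results below was not tested.

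Acod1 and Pcx were the 2 members that passed the authors' test (q under 0.05), and both fell with MEK1-hi exosomes. None rose, at q under 0.05 or at an unadjusted p under 0.05, by the authors' Cuffdiff test. Over all rows tested, 2.44% passed at q under 0.05, 1.69% lower and 0.751% higher, and at an unadjusted p under 0.05 5.12% were lower and 3.53% higher. The 2 members that fell are 6.25% of the 32, a share that rests on these 2 genes alone. The gene for Slc13a3, a plasma membrane transporter of dicarboxylates such as succinate, stands in the list of related genes and fell too. The promoters of these 3 genes are shown first, because they are the genes whose levels the results turn on.

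Each sequence runs 5′ to 3′ on the strand of the gene and holds the 250 bases before a RefSeq start site (GRCm38.p6, the assembly of build mm10). Capitals mark matches, on either strand, to 7 motifs searched for: AP-1 (TGANTCA), the antioxidant response element (TGACNNNGC), the interferon-stimulated response element, the E-box (CACGTG), the cyclic AMP response element (TGACGTCA), the TATA box (TATAAA) and the NF-kB consensus. The windows lie at chr14:103046762-103047011 (Acod1, plus strand), chr19:4510222-4510471 and chr19:4594069-4594318 (Pcx, plus strand) and chr2:165473198-165473447 (Slc13a3, minus strand). The last 35 bases of the Acod1 window and the last 33 of the Slc13a3 window fall within first exons of the GENCODE M21 annotation, which starts these genes further upstream.
Acod1: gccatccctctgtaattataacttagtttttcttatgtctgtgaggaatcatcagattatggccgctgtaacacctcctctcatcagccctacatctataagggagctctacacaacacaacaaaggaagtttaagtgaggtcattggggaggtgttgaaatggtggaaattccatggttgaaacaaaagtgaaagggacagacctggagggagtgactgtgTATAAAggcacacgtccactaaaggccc
Pcx, start site 1: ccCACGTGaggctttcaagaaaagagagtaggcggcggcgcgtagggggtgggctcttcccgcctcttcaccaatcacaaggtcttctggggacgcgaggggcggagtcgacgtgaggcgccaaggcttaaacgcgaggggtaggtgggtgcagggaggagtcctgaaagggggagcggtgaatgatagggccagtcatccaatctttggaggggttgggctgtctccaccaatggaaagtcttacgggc
Pcx, start site 2: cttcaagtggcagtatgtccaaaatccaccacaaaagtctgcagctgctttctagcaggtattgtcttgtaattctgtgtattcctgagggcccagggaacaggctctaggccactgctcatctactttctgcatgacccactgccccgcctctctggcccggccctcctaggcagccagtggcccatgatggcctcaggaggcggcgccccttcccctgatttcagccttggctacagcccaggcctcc
Slc13a3: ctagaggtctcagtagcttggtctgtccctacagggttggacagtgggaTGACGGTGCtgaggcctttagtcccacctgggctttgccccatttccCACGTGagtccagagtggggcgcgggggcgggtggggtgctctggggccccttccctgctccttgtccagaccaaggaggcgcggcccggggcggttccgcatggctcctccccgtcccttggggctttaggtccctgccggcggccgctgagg

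The Acod1 window holds a TATA box from base -28 to -23, counted from the start site, a motif that 12.4% of all 32851 windows of this length hold. This match lies in the last 35 bases, within the first exon of the GENCODE annotation, so it precedes the RefSeq start site only. The bases of the Acod1 window are 44.4% G or C with 2 CpG dinucleotides. The 33 windows of the other 26 members with an entry had medians of 61.2% and 17 CpG. Their lowest values were 43.6% G or C, below that of Acod1, and 6 CpG. Over all windows the medians were 52.4% and 6 CpG. Pcx start site 1 has an E-box from -248 to -243 (6.02% of all windows hold one), 60.8% G or C and 16 CpG. Start site 2, inside the gene and outside its GENCODE exons, holds none of the 7 motifs and has 58.0% G or C with 4 CpG. The Slc13a3 window holds an antioxidant response element from -201 to -193 (10.2% of all windows hold one) and an E-box from -154 to -149. No 2 of these matches overlap. The NF-kB consensus, which 7.25% of all windows hold, has no match in these 4 windows and has one in 8 of the 36 member windows, for Dlst, Got1, Idh2, Ogdh, Pdha1, Sdhb, Sucla2 and Suclg2, none of which passed the test. Windows of members that did not pass also hold the motifs marked above. Got2 has a TATA box, Ogdh and Pdk2 have an E-box, and Dlst, Idh3g and Sucla2 have an antioxidant response element. A match is a description of the letters only.

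Acod1 (chromosome 14, 103046977 to 103056573, plus strand) was at 52.8 FPKM in the MEK1-low group and 15.4 FPKM in the MEK1-hi group. It fell 3.43-fold as a plain ratio, and its log2 fold change was -1.71 on the log2(FPKM + 1) scale used below (p = 5e-05 and q = 0.00349, as the authors' deposited table lists them, 5e-05 being its smallest p). Among the 32 members it went from rank 13 by level to rank 26. No other annotated gene overlaps it. Among all rows tested at 1 FPKM or more, 0.152% had a lower log2 fold change. In bulk RNA, fewer cells carrying a transcript and less of it per cell cannot be told apart.

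The other enzymes next to the itaconate branch described here did not pass the test. Citrate synthase, Cs, which forms citrate, was at 73.8 and 75.2 FPKM with MEK1-low and MEK1-hi exosomes. Aco1, the cytosolic aconitase that doubles as an iron-regulatory RNA-binding protein, was at 25.2 and 26.2 FPKM. The level of Cs was therefore 1.40 times that of Acod1 in the MEK1-low group and 4.87 times in the MEK1-hi group, and Acod1 went from 2.10 times the level of Aco1 to 0.588 times. Clybl, an enzyme of itaconate breakdown, was at 11.4 and 9.01 FPKM (q = 0.754, as the authors' deposited table lists it). These ratios compare transcripts, not enzyme activity or itaconate.

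Pcx encodes pyruvate carboxylase, which makes oxaloacetate from pyruvate and is the classical anaplerotic enzyme. At chromosome 19, 4510472 to 4621752, it was at 4.37 FPKM in the MEK1-low group and 1.15 FPKM in the MEK1-hi group, and it fell 3.79-fold as a plain ratio (p = 1e-04 and q = 0.00636, as the authors' deposited table lists them). It was the lowest of the 32 members with MEK1-hi exosomes. Because the level is low, its log2 fold change depends on the pseudocount: it was -1.32 with 1 FPKM added, -1.92 with none and -0.61 with 5. The authors' test score was -2.06 for Pcx and -8.09 for Acod1, both from the authors' deposited table. At a score of -2.08, S100a8 was not called there (p = 0.00405 and q = 0.118 by the authors' Cuffdiff test). Scores and p-values of different genes thus do not run in the same order. Lrfn4, which overlaps Pcx on the opposite strand, was at 1.03 and 0.803 FPKM (q = 0.999, as the authors' deposited table lists it). The sources used here do not say whether reads were counted by strand.

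The other enzymes of pyruvate and phosphoenolpyruvate exchange had higher values with MEK1-hi exosomes, and neither passed. Pck2, the mitochondrial enzyme that turns oxaloacetate into phosphoenolpyruvate, was at 6.55 and 7.83 FPKM. Me2, a mitochondrial malic enzyme that makes pyruvate from malate, was at 12.3 and 13.8 FPKM. Relative to Pcx, the level of Me2 went from 2.81 to 12.0 times and that of Pdha1, which opens the oxidative route for pyruvate, from 7.55 to 29.2 times. These ratios mostly restate the fall of Pcx to 1.15 FPKM. The values of Me2 and Pdha1 themselves were 12.5% and 2.23% higher with MEK1-hi exosomes, and neither gene was called.

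**Figure D1:**
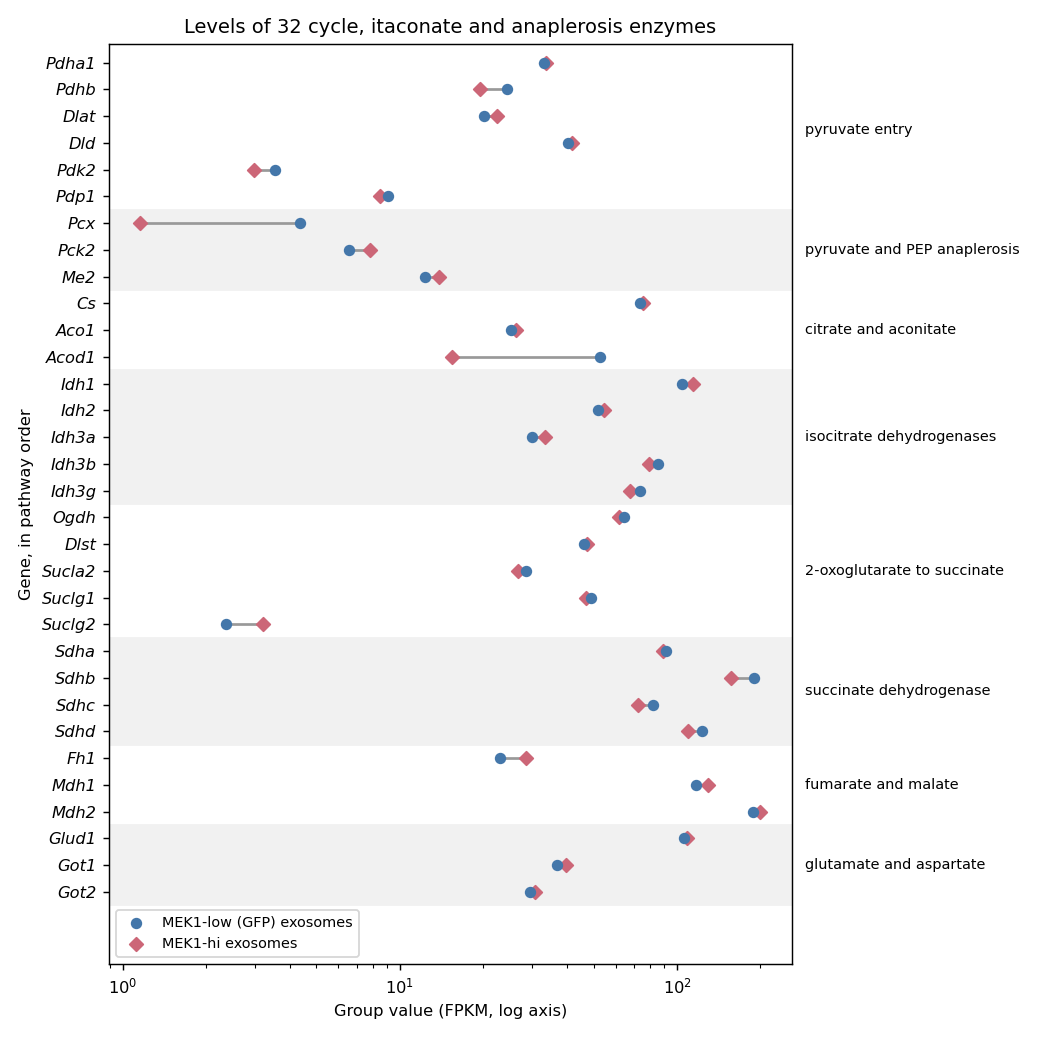
Levels of the 32 enzyme genes in pathway order, as FPKM on a log axis. Circles are the MEK1-low (GFP) group value, diamonds the MEK1-hi group value, 1 value per group without error. Acod1 (52.8 and 15.4 FPKM) and Pcx (4.37 and 1.15 FPKM) have the long connecting lines.

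Genes of the pyruvate dehydrogenase complex, which turns pyruvate into acetyl-CoA, split 3 higher and 3 lower with their regulators, and none of the 6 passed. The subunit genes of the first enzyme were at 33.0 and 33.7 FPKM for Pdha1 and at 24.4 and 19.4 FPKM for Pdhb, the latter with the lowest log2 fold change of the 30 members not called, -0.32 (p = 0.063 and q = 0.647, as the authors' deposited table lists them). Dlat, the acetyl-transferring core, was at 20.2 and 22.4 FPKM, and Dld, the dihydrolipoamide dehydrogenase shared with the 2-oxoglutarate complex, at 40.5 and 41.7 FPKM. The inhibitory kinase gene Pdk2 was at 3.53 and 2.96 FPKM and the activating phosphatase gene Pdp1 at 9.08 and 8.45 FPKM.

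The isocitrate dehydrogenases, which form 2-oxoglutarate, lay between -0.11 and 0.15 on the log2 scale, and none of the 5 passed (q = 0.999 for each, as the authors' deposited table lists it). Cytosolic Idh1 and mitochondrial Idh2, both NADP-dependent, had 104 and 114 FPKM and, respectively, 51.9 and 54.7 FPKM, so that Idh1 was at 2.00 and 2.08 times the level of Idh2. Of the NAD-dependent enzyme of the cycle, the catalytic subunit gene Idh3a was at 30.0 and 33.5 FPKM, Idh3b at 85.1 and 79.2 FPKM and Idh3g at 73.5 and 67.9 FPKM. Idh3b overlaps Nop56 on the opposite strand, which was at 51.3 and 69.4 FPKM (q = 0.907, as the authors' deposited table lists it).

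From 2-oxoglutarate to succinate, 2 genes had higher and 3 lower values, and none passed. Ogdh and Dlst, of the 2-oxoglutarate dehydrogenase complex, had 64.6 and 62.0 FPKM and, respectively, 46.2 and 47.5 FPKM. Succinyl-CoA synthetase pairs the alpha subunit Suclg1, at 48.8 and 46.9 FPKM, with a beta subunit that sets whether ATP or GTP is made. The ATP-forming Sucla2 was at 28.5 and 26.6 FPKM and the GTP-forming Suclg2 at 2.35 and 3.22 FPKM. Suclg2 had the highest log2 fold change among members not called, 0.33 (p = 0.0683 and q = 0.671, as the authors' deposited table lists them), and the ratio of Sucla2 to Suclg2 was 12.1 in the MEK1-low group and 8.26 in the MEK1-hi group.

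Succinate dehydrogenase is both an enzyme of the cycle and complex II of the respiratory chain, and it is the enzyme that itaconate inhibits. All 4 subunit genes had lower values with MEK1-hi exosomes, and none passed. Sdhb, the iron-sulphur subunit, was at 190 and 157 FPKM (p = 0.0601 and q = 0.632, as the authors' deposited table lists them, this p being the smallest among the 30 members not called). Sdha, the flavoprotein, was at 90.9 and 89.2 FPKM, and its direction turned to 0.02 when both groups were scaled to the same FPKM total. The membrane anchor genes Sdhc and Sdhd had 82.0 and 72.0 FPKM and, respectively, 123 and 110 FPKM. The 4 genes summed to 485 FPKM in the MEK1-low group and 428 FPKM in the MEK1-hi group.

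The closing steps of the cycle, and the transaminases and glutamate dehydrogenase that feed it, had higher values with MEK1-hi exosomes in all 6 genes, and none passed (q = 0.999 for each, as the authors' deposited table lists it). Fumarase, Fh1, was at 23.0 and 28.5 FPKM. Mitochondrial Mdh2 and cytosolic Mdh1, the malate dehydrogenases, had 188 and 200.1 FPKM and, respectively, 117 and 130 FPKM. Mdh2 was the member of the highest level with MEK1-hi exosomes, as Sdhb was with MEK1-low. Glud1, glutamate dehydrogenase, shares its row with Gm3219 and was at 106 and 109 FPKM, and reads of the 2 cannot be told apart. The aspartate aminotransferase genes were at 36.8 and 39.9 FPKM for cytosolic Got1 and at 29.5 and 30.7 FPKM for mitochondrial Got2, and Got1 was at 1.25 and 1.30 times the level of Got2.

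**Figure D2:**
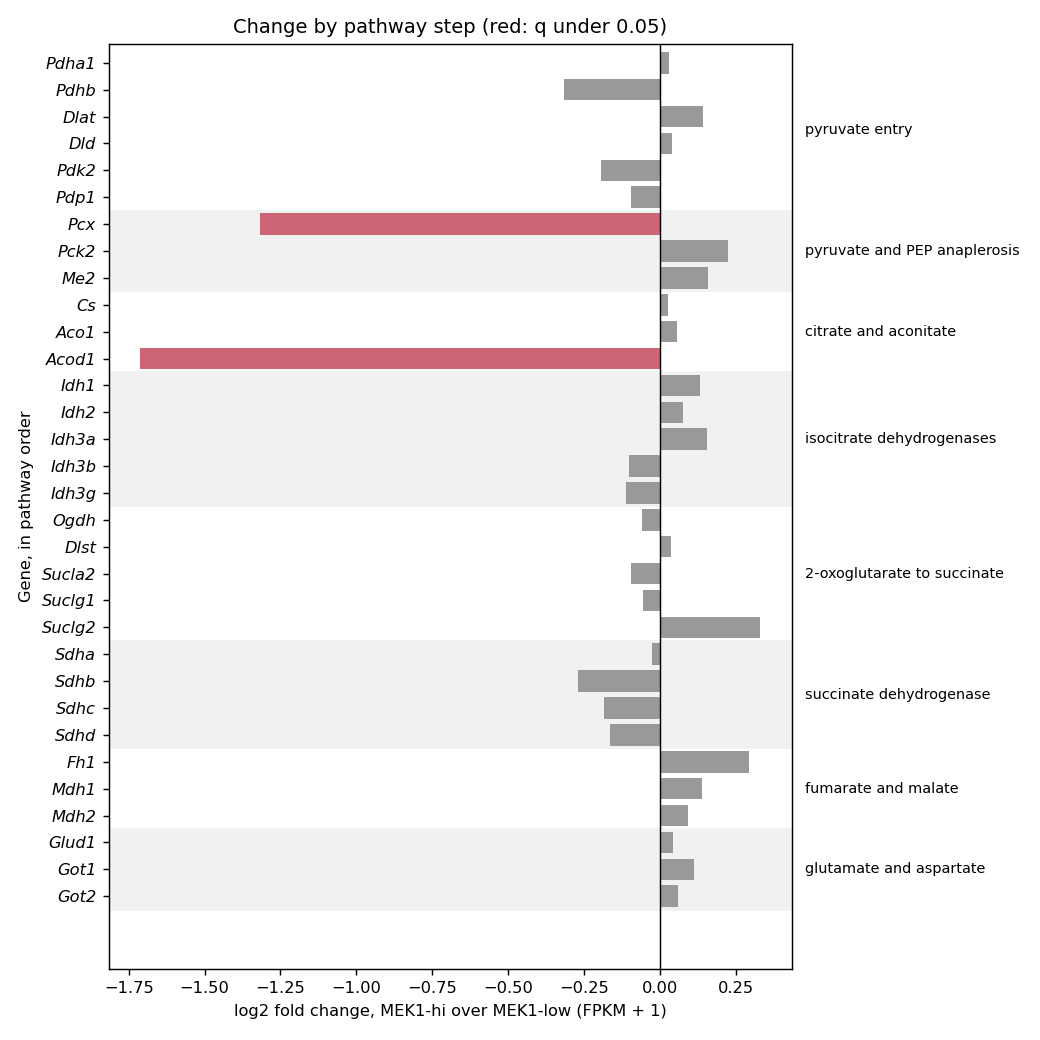
Change of each enzyme gene in pathway order, as the log2 ratio of MEK1-hi to MEK1-low group values with 1 FPKM added. Red bars passed the authors' test at q under 0.05 (Acod1 at -1.71, Pcx at -1.32), and grey bars, all between -0.32 and 0.33, did not.

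Taking the 32 members as a list, 18 had higher and 14 lower values with MEK1-hi exosomes, 43.8% lower beside 49.8% over all rows tested. Their median log2 fold change was 0.03, beside 0.00 over the 11804 rows tested at 1 FPKM or more. The mean was -0.08, of the opposite sign, with Acod1 and Pcx in it. The 4 cytosolic members, Aco1, Idh1, Mdh1 and Got1, all had higher values, with a median of 0.12, and none was called. The 28 mitochondrial ones split 14 and 14. The cytosolic enzyme genes Me1, Gpt1, Acly and Glul of the related list had lower values, from -0.52 to -0.04, and none was called. Summed FPKM went from 1825 to 1769, a change of -3.10%, and without Acod1 from 1773 to 1753, a change of -1.08%. Over all rows tested the sum also went down, from 644008 to 624681 FPKM, so a lower sum is not particular to the members.

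The 30 members not called lay between -0.32 and 0.33 on the log2 scale, plain ratios of 0.795 to 1.37, and 84.0% of all rows tested at 1 FPKM or more were as close to 0. Of these 30, 14 lay within 0.1 of 0 and 25 within 0.2, against shares of 39.5% and 67.0% over those rows. Those rows include called ones, while the 30 were set apart by not being called, so the sets are not alike. No row of the table between the lowest and highest member levels was called at an absolute log2 fold change under 0.44. On this scale, with 1 FPKM added, the changes of these 30 were thus smaller than any called at these levels. That is an observed minimum, not a detection limit of the test. A q above the threshold does not show that their levels were the same.

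**Figure D3:**
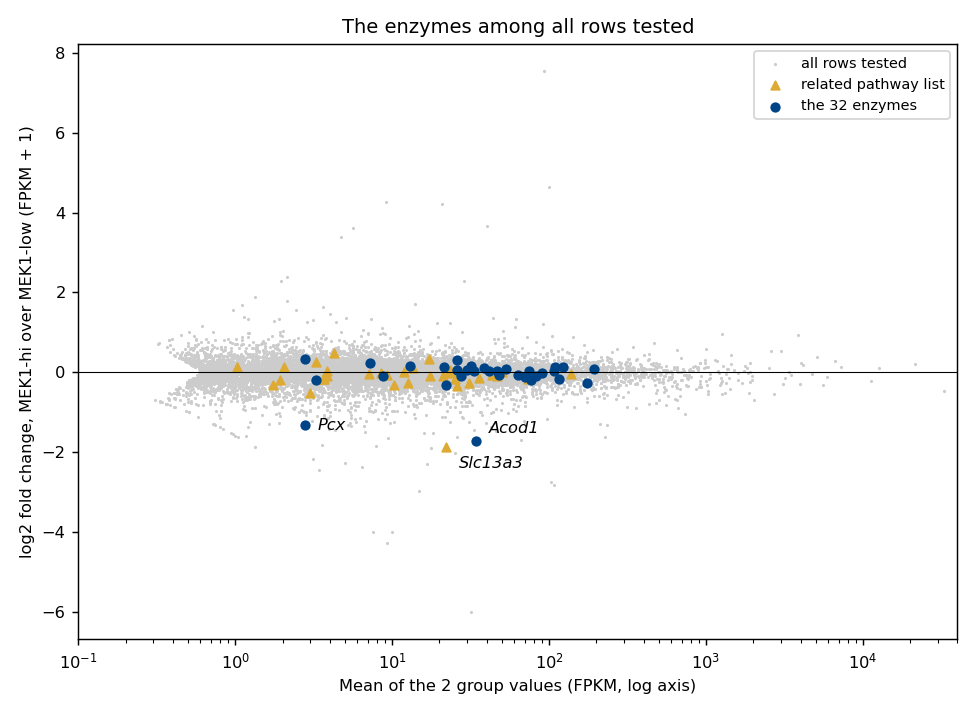
Log2 fold change (1 FPKM added) against the mean of the group values in FPKM on a log axis, for all 12648 rows tested (grey), the 32 enzymes (blue circles) and the related pathway list (yellow triangles). Acod1, Pcx and Slc13a3 lie apart from the other genes of both lists, which sit between -0.52 and 0.48.

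The related list held 44 genes that share the pathway without being members, among them regulators of pyruvate entry, carriers and assembly factors. Of these, 34 were tested, 9 had no test, all at no more than 0.149 FPKM, and 1 is not analysed here. Slc13a3 fell and 0 rose by the authors' test at q under 0.05. With MEK1-hi exosomes 9 tested genes had higher and 25 lower values, 73.5% lower beside 49.8% over all rows tested. The split was 14 and 20 with both groups scaled to the same FPKM total. That scaling also moved the median log2 fold change of all rows tested from 0.00 to 0.04. The share called, 2.94%, was near that over all rows. The median log2 fold change was -0.08. Slc13a3 (chromosome 2, 165405028 to 165473230, minus strand) was at 35.3 FPKM in the MEK1-low group and 8.98 FPKM in the MEK1-hi group, a 3.93-fold fall (p = 5e-05 and q = 0.00349, as the authors' deposited table lists them). The other plasma membrane carrier of the list, Slc13a5, was listed at 0 in both groups.

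At an unadjusted p under 0.05, which 8.66% of all rows reached, 3 further related genes differed without passing the adjusted threshold. Me1, the cytosolic malic enzyme that makes NADPH, was at 3.67 and 2.27 FPKM (p = 0.00405 and q = 0.118, as the authors' deposited table lists them). Gpt2, the mitochondrial alanine aminotransferase, was at 3.39 and 5.14 FPKM (p = 0.0209 and q = 0.348, as the authors' deposited table lists them). Pdp2, a phosphatase that activates pyruvate dehydrogenase, was at 2.06 and 1.44 FPKM (p = 0.0149 and q = 0.289, as the authors' deposited table lists them). Of the related genes of the highest level, Glul, glutamine synthetase, was at 140 and 136 FPKM, the 2-oxoglutarate carrier gene Slc25a11 at 77.5 and 69.0 FPKM, and Oxct1, an enzyme of ketone body use, at 50.2 and 50.1 FPKM. Of the pyruvate dehydrogenase kinases, Pdk1 was at 15.0 and 19.2 FPKM (q = 0.824, as the authors' deposited table lists it), above Pdk2 in both groups.

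**Figure D4:**
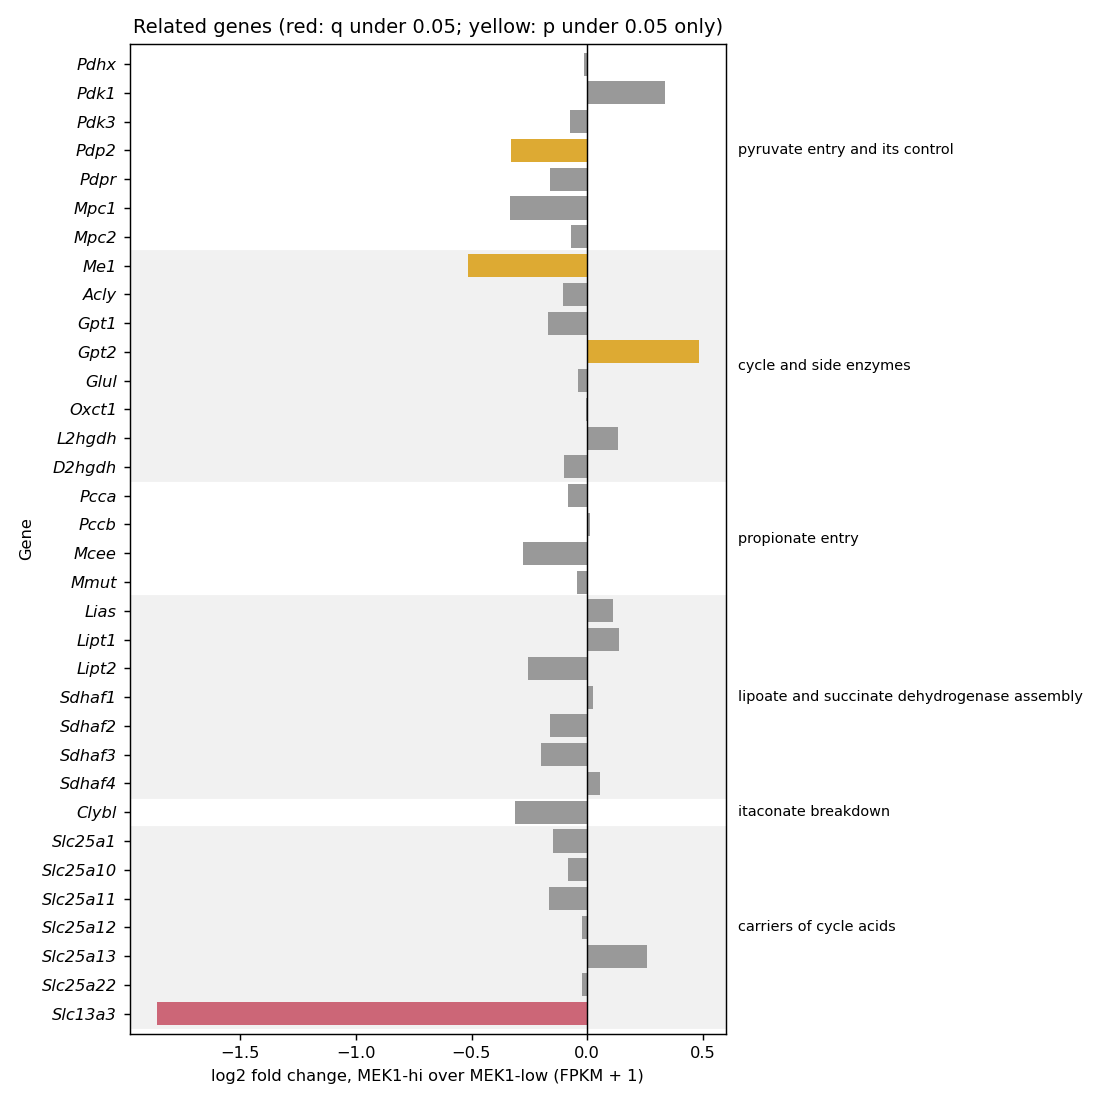
Log2 fold change (1 FPKM added) of the 34 tested genes of the related list, by function. The red bar (Slc13a3, -1.86) passed the authors' test at q under 0.05, and the yellow bars (Pdp2, Me1, Gpt2) reached only an unadjusted p under 0.05.

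The rows around the genes that fell were counted as well. By the authors' Cuffdiff test, 2.44% of all rows tested were called and 8.66% had an unadjusted p under 0.05. Against such shares, counts from so few rows cannot show whether these regions differ from the rest. Within 200 kb on either side of Acod1, 5 other rows were tested and 1 was called: Kctd12, which rose from 45.9 to 69.6 FPKM (q = 0.00349, as the authors' deposited table lists it), opposite in direction to Acod1 and named here after its value was seen. The log2 fold changes of these 5 rows ran from -0.37 to 0.59. Within the same distance of Pcx, 0 of 6 other rows tested were called, with log2 fold changes from -0.17 to 0.41. Around Slc13a3, 0 of 4 were called, from -0.05 to 0.32. By the authors' Cuffdiff test, 2 of the rows near Acod1 (Kctd12 among them), 0 near Pcx and 1 near Slc13a3 had an unadjusted p under 0.05. Of the 32 members, 20 overlap no other annotated gene and 6 overlap a protein-coding gene, all 6 of these partners lying on the opposite strand and none of them called.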

How the data were processed

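RNA was sequenced in 4 samples, 2 per group; per the labels' protocols, a stranded mRNA kit was used on 750 ng of RNA. Build mm10, Cuffdiff, Cufflinks, TopHat and FastQC 0.73 are listed, without settings, per the submitters' processing notes. The authors deposited 1 FPKM value per group and gene, with a test score, a p-value and a q-value, per the file headers; the columns named GFP exo and MEK1 exo were matched to the MEK1-low and MEK1-hi groups through the treatment labels. The labels do not say whether samples of a group were separate cultures, so the p-values may measure technical spread. Replicates, and a test of them, were not analysed here.

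Symbols came from the Ensembl identifiers, positions from GENCODE M21 (mm10) and promoters from RefSeq, with entries for 28 of 32 members. Calls are q under 0.05 as deposited. Log2 fold changes were computed with Python 3.11.15 and pandas 2.3.3 from the group values with 1 FPKM added, which understates changes of low genes; list medians use genes at 1 FPKM or more. The deposited log2 column holds 1555 cells of spreadsheet error text and was not used. All members are named with their levels. The p-values and q-values are given for those called and for those closest to the threshold. Isoenzymes are given by level and mostly by ratio, some with q. Of the related list, those at an unadjusted p under 0.05 and those of the highest level are named. A few more stand beside the members they bear on. The members, lists and motifs were chosen with earlier results of these data known. Some genes of the related list are not reported here and are left out of its counts. Alternatives covered the threshold, pseudocount, filter, joined rows and scaling.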

Additional observations from a re-analysis of the deposited data

How the results depend on the processing

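No paired analysis was possible because the table gives 1 value per group, and for the same reason no replicate could be left out. The member count of 2 lower and 0 higher held at q under 0.01, at q under 0.1, at an unadjusted p under 0.05, without joined rows and at 1 FPKM or more. Only at 5 FPKM or more did it go to 1, since Pcx is below that level. The related list went from 1 to 3 lower and from 0 to 1 higher at an unadjusted p under 0.05. The member median stayed between 0.03 and 0.08 and that of the related list between -0.09 and -0.04 over all alternatives for pseudocount, filter, joined rows and scaling. The number of members with lower values ran from 12 to 14. The number of related genes with lower values ran from 19, where fewer genes entered, to 29, where more did, and was 20 of 34 with equal FPKM totals. A pseudocount cannot turn a direction. Of 64 values of single members under the 2 other scalings, 1 turned its direction, Sdha, to 0.016 with equal FPKM totals, a scaling that moves every gene up, by 0.044 as a plain log2 ratio and by 0.023 to 0.043 for the members with 1 FPKM added. Depth is unknown.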
